A study of Homo sapiens with 6 samples.

Results

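The USP genes encode the ubiquitin-specific proteases, and 48 of the 27918 rows of the expression table carried the name of one. A row was a member when its gene name was USP followed by a number, with or without a final X. RNA-seq had been run on HCT-116 cells, a human colorectal carcinoma cell line, in 3 libraries transfected with a control GapmeR (GapNC) and 3 transfected with a GapmeR against the long noncoding RNA CASC9 (GapC9), both at 10 nM. A GapmeR is an antisense DNA oligonucleotide with modified ends that directs RNase H to the RNA it pairs with. The time from transfection to RNA is given as 24 h in one place of the study and as 48 h in another, and no vector, allele or second agent separated the groups. The labels do not say whether the 3 libraries of a group came from separate cultures, so p-values measure the spread between these libraries, which may be technical.

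Ubiquitin is attached to lysines of target proteins by E3 ligases, and deubiquitinases cut it off again, so that both reactions together set how long a protein lasts or where it acts. The USPs form the largest deubiquitinase family, are cysteine proteases with a shared catalytic fold, and find their targets through flanking domains and partner proteins. In colorectal cells members are known for acting on p53 and MDM2, on the TGF-beta and Wnt pathways, on histones H2A and H2B, and on DNA repair proteins.

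Values were FPKM, fragments relative to the length of the transcript and the size of the library, as deposited by the authors. The targeted RNA did not separate the groups. CASC9 was listed at 0, 0.0108 and 0 FPKM in the GapNC libraries and at 0.0528, 0.107 and 0 FPKM in the libraries labelled GapC9 (exact two-sided permutation test, p = 0.4, where 0.1 is the smallest p that 3 against 3 allows). These values thus give no measure of knockdown, and GapC9 and GapNC stand below for the libraries so labelled. By quantitative PCR the study reports less CASC9 in HCT-116 cells given the CASC9 GapmeR, without saying whether in the RNA sequenced here. The low steps in the values corresponded to 23200000 to 24800000 fragments a library, if a step is 1 fragment. The epithelial markers KRT8 (316 to 480 FPKM), KRT18 and EPCAM were abundant and CDX2 was present at 1.59 to 3.79 FPKM, whereas VIL1 did not exceed 0.0481 FPKM. The leukocyte gene PTPRC and the T cell gene CD3E were at or near 0, and the endothelial genes PECAM1 and VWF did not exceed 0.0467 and 0.038 FPKM. The collagen genes COL1A1 (1.06 to 1.54 FPKM) and COL3A1 (3.03 to 4.13 FPKM), which mark fibroblasts, were detected in every library. For DCN, also on the fibroblast list, no row carried the name. The leukocyte gene CD68 shared a row with EIF4A1 and other genes (49.8 to 55.7 FPKM), so its own level cannot be read. Library GapNC 1 stood apart: over 10117 genes, its deviation from the gene mean rose with GC content (Spearman rho 0.618), against 0.013 and -0.101 in the other GapNC libraries and 0.022 in GapC9 1. GapC9 2 and GapC9 3 leaned the other way, at -0.339 and -0.384. Calls are therefore also given without GapNC 1 and after subtracting each library's trend on GC content.

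Of the 48 members, 46 were above 0 in all 6 libraries. USP22, the H2B deubiquitinase of the SAGA coactivator complex, was the most abundant, at 57.5, 50.7 and 49.9 FPKM in GapNC and 62.9, 61.7 and 57.0 FPKM in GapC9. It was followed by USP5, which disassembles unanchored ubiquitin chains (50.6, 36.8 and 35.8 against 37.2, 34.8 and 33.3 FPKM), and USP7, which acts on MDM2 and p53 (27.5, 32.8 and 31.6 against 31.3, 33.9 and 33.3 FPKM). Below them came USP10, a cytoplasmic p53 deubiquitinase bound by G3BP proteins, and USP39, a spliceosome component without isopeptidase activity (mean 23.9 and 25.3 FPKM). USP22 lay above USP5 without overlap in GapC9 only, and USP5 above USP7 in GapNC only. USP7 and USP10 overlapped in both groups, and USP39 lay below USP10 in both. These 5 genes held 43.7% of the summed FPKM of the family. The median member had a mean of 4.38 FPKM, 42 members had a mean of at least 1 FPKM, and 12 of at least 10 FPKM. Summed over the family, the level was 418.7, 423.5 and 414.7 FPKM in GapNC and 414.9, 421.4 and 405.4 FPKM in GapC9, and the groups overlapped. In bulk RNA, fewer cells with a transcript and less of it per cell cannot be told apart.

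**Figure D1:**
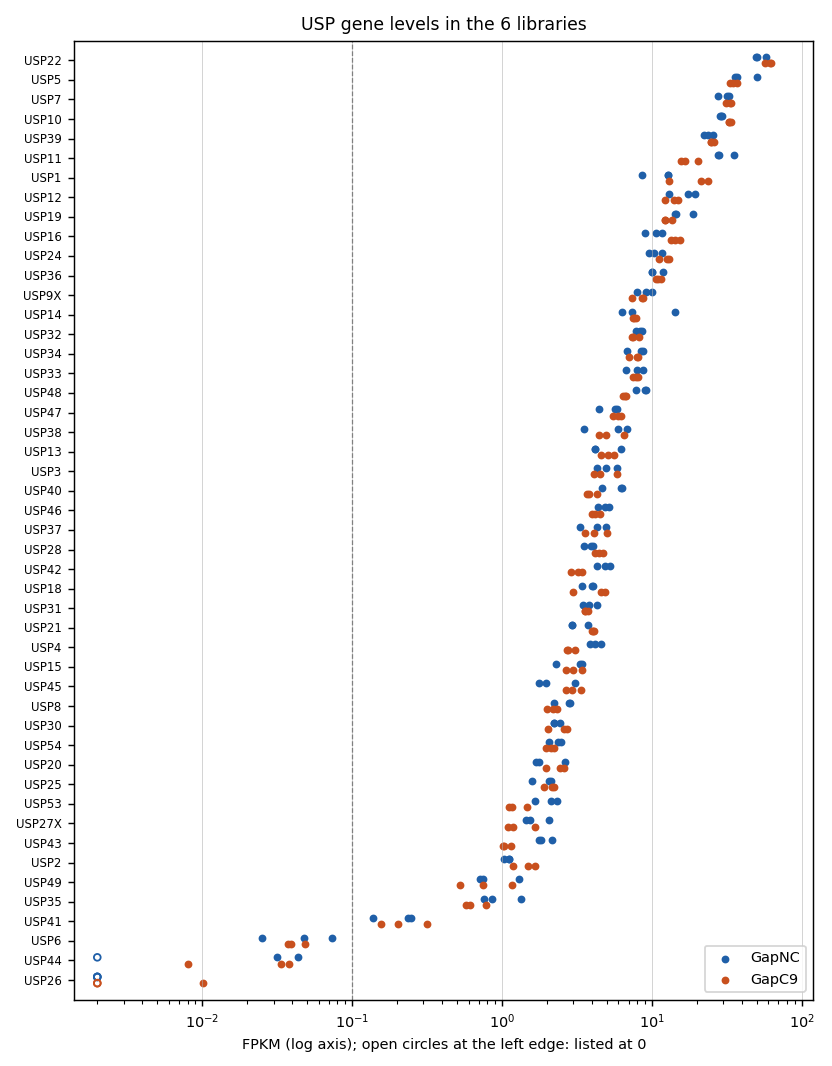
Level of each of the 48 USP genes in FPKM on a log axis, with 1 point per library (blue GapNC, orange GapC9), genes ordered by their mean and open circles for values listed at 0. The dashed line marks the 0.1 FPKM mean below which genes were not tested; USP26, USP44 and USP6 lie below it.

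At the bottom of the order lay USP26, USP44, USP6, USP41 and USP35. USP26, a gene best known from testis, was listed at 0 in 5 libraries and at 0.0102 FPKM in GapC9 3. USP44, a regulator of the spindle checkpoint, was listed at 0 in GapNC 1, at 0.0315 and 0.0439 FPKM in the other GapNC libraries, and at 0.00806, 0.0338 and 0.0382 FPKM in GapC9. USP6, a primate-specific gene that shares sequence with USP32, lay between 0.0253 and 0.0739 FPKM. These 3 genes had a mean under 0.1 FPKM and were not tested, which left 45. USP41 lay between 0.138 and 0.316 FPKM, and since it is nearly a copy of part of USP18, reads could be split between these genes. USP35 averaged 0.989 ± 0.310 FPKM in GapNC and 0.661 ± 0.112 FPKM in GapC9 (SD, n = 3 each). For USP17, USP29, USP50 and USP51 no row carried the name, and they were not analysed here.

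Few USP genes differed between the groups. At an adjusted p under 0.05 in limma on log2(FPKM + 0.1), 2 of the 45 tested members were lower in GapC9 (4.44%), against 5.1% of all 16028 genes tested. None was higher, against 1.89% of all genes, while 4 were higher at an unadjusted p under 0.05 (8.89%, against 9.09% of all genes). At the same unadjusted threshold 7 were lower (15.6%, against 16.8%). None passed the thresholds of the study's own methods, a change of the mean to 2 times or more, or to 0.5 times or less, at an unadjusted p under 0.05, which 4.32% of all genes passed downward and 2.1% upward. The groups did not overlap for 8 members that were lower in GapC9 (17.8%, against 21.6%) and for 6 that were higher (13.3%, against 12.6%). By each of these rules the share of members lay near or under that of all genes.

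The fold changes of the family were small. The fitted log2 fold change, GapC9 minus GapNC, had a median of 0.0005 over the members and of -0.076 over all genes tested. The middle of the distribution, from the lower to the upper quartile, ran from -0.25 to 0.13 in the family and from -0.42 to 0.24 over all genes. The 2 sets differed in level. A mean of at least 1 FPKM was reached by 42 of the 45 tested members and by 10229 of the 16028 genes tested. Neither these quartiles nor the shares of calls above were matched for level. For 30 members the log2 fold change was within 0.3 of 0, with 23 members above 0 and 22 below. That split moved to 29 above and 16 below when each library was scaled by its median, a scaling that shifted the median of all genes from -0.076 to 0.063 and their adjusted calls from 303 higher and 817 lower to 504 higher and 432 lower.

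**Figure D2:**
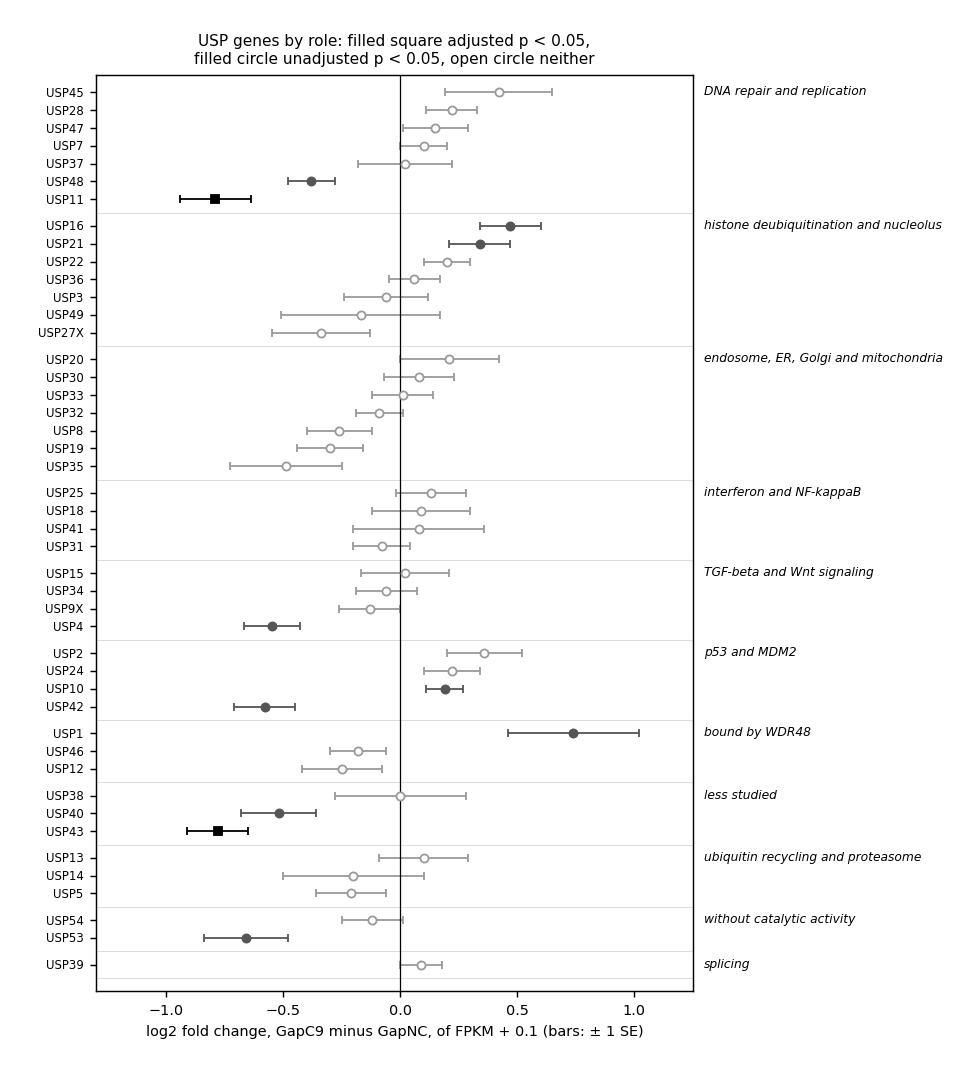
Log2 fold change of FPKM + 0.1, GapC9 minus GapNC, of the 45 tested USP genes grouped by role, with bars of 1 standard error from limma (n = 3 libraries each). USP11 at -0.79 and USP43 at -0.78 are the filled squares, past an adjusted p of 0.05; filled circles passed the unadjusted p alone.

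USP11 and USP43 fell. USP11, a nuclear deubiquitinase of homologous recombination repair (MSTRG.18100 in the table; GRCh38 chrX:47232690-47248328, plus strand), was at 35.3, 28.2 and 27.5 FPKM in GapNC and at 20.2, 15.6 and 16.7 FPKM in GapC9. All 3 GapC9 libraries lay below all 3 GapNC libraries, and in both groups the first library was the highest. The mean was 0.577 times that of GapNC, a log2 fold change of -0.79 ± 0.15 (SE, adjusted p = 0.04). Without GapNC 1 the adjusted p was 0.0624, and over the 6 fits that leave out 1 library it ran from 0.0624 to 0.138, so that none of them kept the call. Over all 15 alternatives it ran from 0.0129 to 0.138.

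USP43, a less studied member (ENSG00000154914; GRCh38 chr17:9644698-9729691, plus strand), was at 2.15, 1.82 and 1.78 FPKM in GapNC and at 1.02, 1.04 and 1.15 FPKM in GapC9. The gap between the groups was wider than the range within either of them. The mean was 0.558 times that of GapNC, a log2 fold change of -0.78 ± 0.13 (SE, adjusted p = 0.0314). Without GapNC 1 the call held at an adjusted p of 0.049, and without each of the other libraries it was lost, the highest adjusted p being 0.123. Over all 15 alternatives it ran from 0.0225 to 0.123. The noncoding genes AC118755.1 and AC118755.2 overlap USP43 on the opposite strand, and whether strand was used in counting is not given in the sources used here.

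A further 5 members were lower in GapC9 at an unadjusted p under 0.05 only, and their groups did not overlap. USP4, which acts on the type I TGF-beta receptor, was at 4.59, 3.90 and 4.19 FPKM in GapNC and at 3.09, 2.72 and 2.76 FPKM in GapC9. Its log2 fold change was -0.55 ± 0.12 (adjusted p = 0.0507). USP42, a p53 deubiquitinase, was at 4.88, 5.24 and 4.29 FPKM against 3.41, 2.90 and 3.23 FPKM, a log2 fold change of -0.58 ± 0.13 (adjusted p = 0.053). Both lay just outside the threshold, and both were inside it at a filter of 1 FPKM, with adjusted p-values of 0.0353 and 0.0374 (over all alternatives 0.0252 to 0.174 and 0.0374 to 0.176). USP53, a tight junction protein long classed as catalytically inactive, was at 1.66, 2.13 and 2.33 FPKM against 1.17, 1.12 and 1.47 FPKM (log2 fold change -0.66 ± 0.18, adjusted p = 0.0869). USP48, a nuclear deubiquitinase of H2A, was at 7.81, 8.95 and 9.09 FPKM against 6.41, 6.65 and 6.69 FPKM (log2 fold change -0.38 ± 0.10, adjusted p = 0.0875). USP40, for which little is known, was at 6.34, 6.22 and 4.66 FPKM against 3.84, 3.70 and 4.30 FPKM (log2 fold change -0.52 ± 0.16, adjusted p = 0.105). For USP40 the lowest GapNC library, the third, came close to the highest GapC9 library.

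In the other direction 4 members were higher in GapC9 at an unadjusted p under 0.05, also without overlap. USP16, a deubiquitinase of histone H2A, was at 9.03, 11.7 and 10.7 FPKM in GapNC and at 13.5, 14.4 and 15.4 FPKM in GapC9 (log2 fold change 0.47 ± 0.13, adjusted p = 0.0883). USP21, which also acts on H2A, was at 3.77, 2.95 and 2.94 FPKM against 4.05, 4.14 and 4.02 FPKM (0.34 ± 0.13 on the log2 scale, adjusted p = 0.182). USP10 was at 29.4, 29 and 28.6 FPKM against 33.6, 33.0 and 32.8 FPKM, and differed by 0.19 ± 0.08 (adjusted p = 0.19). USP1, which with its partner WDR48 removes ubiquitin from FANCD2 and PCNA, had the highest fitted fold change of the family. It was at 8.58, 12.8 and 12.8 FPKM against 21.3, 23.8 and 13.1 FPKM, so that the third GapC9 library lay beside the GapNC libraries and the other two lay well above them. Its log2 fold change of 0.74 ± 0.28 had an adjusted p of 0.164.

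**Figure D3:**
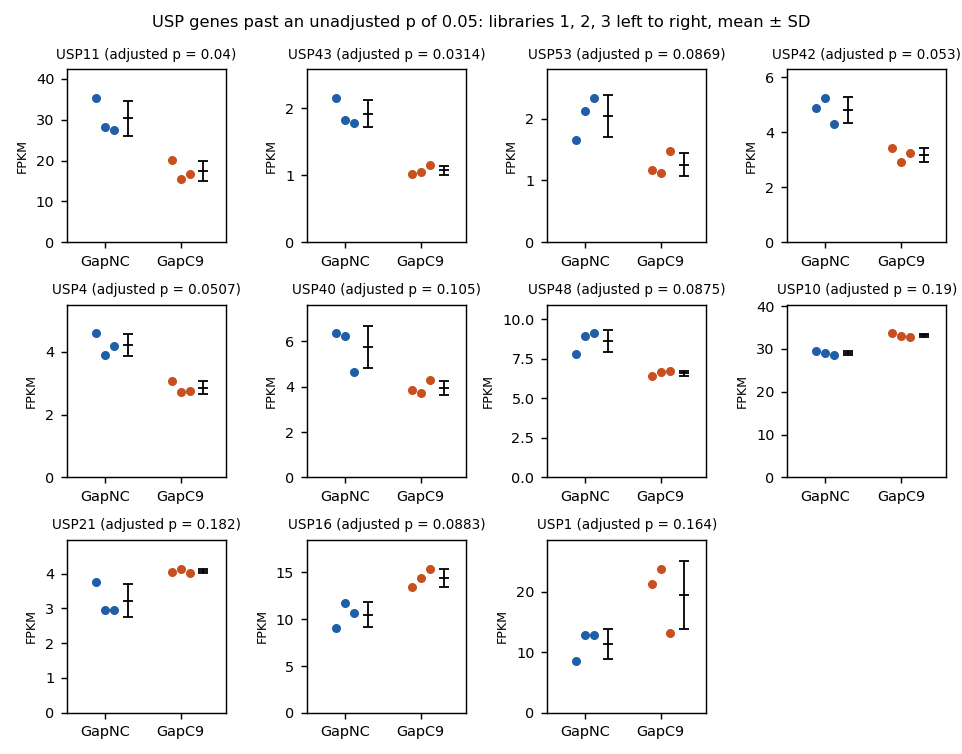
FPKM of the 11 USP genes past an unadjusted p of 0.05, each point a library (1, 2 and 3 from left to right) with the mean ± SD (n = 3) beside it and a vertical axis from 0. The groups do not overlap in any panel; USP1 shows the third GapC9 library at 13.1 FPKM, next to the GapNC libraries.

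By role, the 7 tested members of histone deubiquitination and the nucleolus held USP16 and USP21, higher at an unadjusted p, and none that was lower at it. The others were USP22 (log2 fold change 0.20 ± 0.10, adjusted p = 0.247), the nucleolar USP36 (0.06), USP3 (-0.06), USP49 (-0.17) and USP27X (-0.34). Of the 7 members with roles in DNA repair and replication, USP11 fell, and USP48, which also acts on histone H2A, was lower at an unadjusted p. USP28, a stabilizer of MYC, was at 3.53, 3.92 and 4.03 FPKM in GapNC and at 4.72, 4.48 and 4.21 FPKM in GapC9, without overlap (log2 fold change 0.22 ± 0.11, adjusted p = 0.273). USP45, USP47, USP7 and USP37 were between 0.02 and 0.42 on the log2 scale, with overlapping groups.

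Of the 3 members bound by WDR48, USP1 was at 0.74 on the log2 scale, and its relatives USP12 and USP46 were at -0.25 and -0.18 with overlapping groups. Of the 4 members of the p53 and MDM2 group, USP42 was lower and USP10 higher at an unadjusted p. USP2, an MDM2 deubiquitinase, was at 1.11, 1.12 and 1.04 FPKM against 1.66, 1.5 and 1.18 FPKM, without overlap (log2 fold change 0.36 ± 0.16, adjusted p = 0.217), and USP24 was at 0.22. Among the 4 members of TGF-beta and Wnt signaling, USP4 alone passed the unadjusted threshold, and USP15, USP34 and USP9X lay between -0.13 and 0.02.

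None of the 7 tested members at the endosome, ER, Golgi and mitochondria passed the unadjusted threshold. USP19, anchored in the ER membrane, was at 18.9, 14.6 and 14.2 FPKM against 13.7, 12.3 and 12.3 FPKM, without overlap (log2 fold change -0.30 ± 0.14, adjusted p = 0.234). USP30 of the outer mitochondrial membrane was at 0.08, and USP8, which acts on endosomal receptors, at -0.26 on the log2 scale. The 4 interferon and NF-kappaB members lay between -0.08 and 0.13. They included USP18, which removes the ubiquitin-like ISG15 from proteins and was at 4.04, 3.43 and 3.97 FPKM against 4.87, 4.62 and 2.99 FPKM.

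Among the 3 members of ubiquitin recycling and the proteasome, 1 library set the direction of a gene. USP14, which sits on the proteasome, was at 6.35, 14.4 and 7.44 FPKM in GapNC and at 7.46, 7.80 and 7.61 FPKM in GapC9. GapNC 2 alone was high, and the other 5 libraries lay between 6.35 and 7.80 FPKM. The log2 fold change was -0.20 ± 0.30 with GapNC 2 and 0.15 ± 0.13 without it (adjusted p = 0.711 and 0.538).

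Closely related members are set side by side here. USP4, USP11 and USP15 are paralogs: the first was lower at an unadjusted p, the second fell, and USP15 had a log2 fold change of 0.02 ± 0.19. USP22 and its paralog USP27X differed in level, at means of 60.5 and 1.32 FPKM in GapC9. USP31 and USP43 are also related, and USP31 was at 3.82, 3.46 and 4.32 FPKM against 3.57, 3.75 and 3.59 FPKM, with overlap. The difference in fold change between paralogs was not tested.

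Which members passed changed when GC content was taken into account, measured on the longest listed transcript. The members were longer than the genes tested overall (median 5155 against 3021 bases) and had less GC (median 45.4% against 49.0%). Across the 45 members the fold change and GC content had a Spearman rho of -0.163, which was 0.072 without GapNC 1, and over all genes it was -0.255. The points share their libraries, so no test is given. USP11 and USP43 had nearly the same GC content, 56.50% and 56.51%. With each library's trend on GC content subtracted, their log2 fold changes were both -0.59, and the adjusted p-values were 0.0129 and 0.0225.

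After that correction 6 members were lower at an adjusted p under 0.05 (13.3%, against 7.76% of all genes tested). These were USP11, USP43, USP4 (adjusted p = 0.0252), USP42 (0.0464), USP48 (0.0314) and USP53 (0.012). USP53 had the lowest GC content of the tested members, 34.54%, and a corrected log2 fold change of -0.82 ± 0.11. There were 4 higher members (8.89%, against 6.64% of all genes). They were USP22 (corrected log2 fold change 0.35, adjusted p = 0.0159), USP21 (0.47, adjusted p = 0.0225), USP16 (0.32, adjusted p = 0.0398) and USP10 (0.24, adjusted p = 0.0403). The first 3 of these 4 were of the histone and nucleolus group, and the lower member USP48 also acts on histone H2A. The other tested members of that group did not pass. Their corrected log2 fold changes were 0.26 (USP36), -0.07 (USP3), -0.13 (USP49) and -0.29 (USP27X). Without GapNC 1, and without the correction, the adjusted p-values of USP22, USP21, USP16 and USP10 were 0.12, 0.0599, 0.109 and 0.151. Those of USP4, USP42, USP48 and USP53 were 0.0775, 0.0915, 0.0518 and 0.0635. USP1 stayed at 0.70 ± 0.26 with an adjusted p of 0.142. The correction moved the smaller change of USP19 from -0.30 to -0.06.

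**Figure D4:**
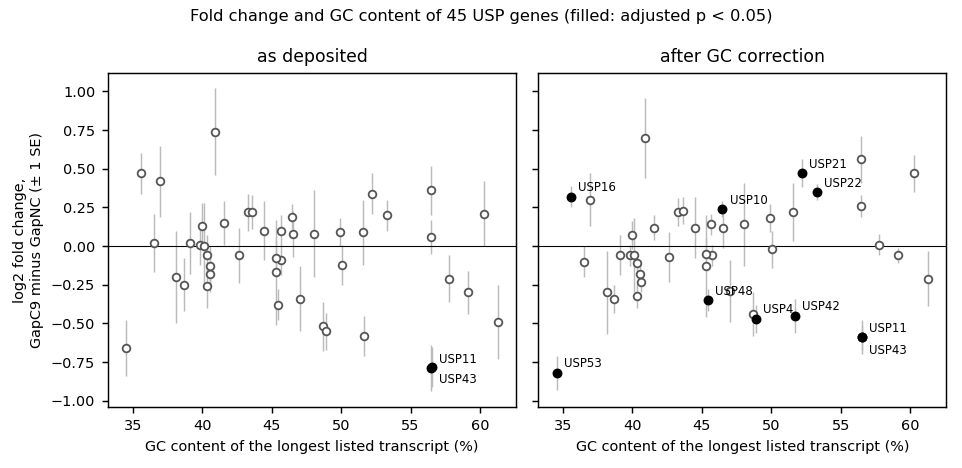
Log2 fold change, GapC9 minus GapNC, of the 45 tested USP genes (± 1 SE) against the GC content of their longest listed transcript, as deposited on the left and after subtracting each library's GC trend on the right. Filled points passed an adjusted p of 0.05: USP11 and USP43 on the left, 6 lower and 4 higher genes on the right.

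The promoters of the family were rich in GC. In the table of RefSeq promoters, 37 of the 48 members had a window of 250 bases before the gene start (GRCh38.p14), with a median GC content of 70.4% and 27 CG dinucleotides, against 64.8% and 21 over the promoters of 10657 genes that reached a mean of 0.1 FPKM. The members were not filtered by level here. On either strand the letters GGGCGG, a GC box, stood in 30 windows (81.1%, against 66.8%), and CGGAAG, an ETS core, in 13 (35.1%, against 27.2%). The letters CCAAT stood in 10 (27.0%, against 34.6%), TATAAA in 2 (5.41%, against 5.48%), and GCATGCG, part of an NRF1 site, in 3 (8.11%, against 5.64%). USP42, USP43 and USP48 had no entry.

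Windows are shown for a pair of members that were lower in GapC9 and a pair that were higher, without the bases that lie in annotated exons. In the main fit each of these members passed the unadjusted p alone. The windows run 5′ to 3′ on the gene's strand, with the letters named above in capitals on either strand. USP4 is chr3:49340072-49340303 (minus strand, inside the longer GENCODE gene), USP40 chr2:233566783-233567032 (minus), USP1 chr1:62436145-62436296 (plus) and USP10 chr16:84699750-84699977 (plus).
USP4: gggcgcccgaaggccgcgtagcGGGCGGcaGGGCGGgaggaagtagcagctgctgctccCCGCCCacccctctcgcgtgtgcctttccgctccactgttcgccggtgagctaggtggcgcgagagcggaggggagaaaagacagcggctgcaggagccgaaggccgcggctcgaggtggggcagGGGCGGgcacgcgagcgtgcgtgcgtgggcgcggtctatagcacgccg
USP40: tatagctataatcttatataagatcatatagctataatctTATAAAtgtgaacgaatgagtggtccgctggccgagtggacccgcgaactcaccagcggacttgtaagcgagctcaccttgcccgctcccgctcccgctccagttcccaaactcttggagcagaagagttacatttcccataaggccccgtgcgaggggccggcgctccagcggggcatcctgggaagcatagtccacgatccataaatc
USP1: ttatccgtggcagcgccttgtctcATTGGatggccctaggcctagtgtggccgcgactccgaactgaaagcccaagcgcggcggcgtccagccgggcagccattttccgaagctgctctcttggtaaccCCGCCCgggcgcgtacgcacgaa
USP10: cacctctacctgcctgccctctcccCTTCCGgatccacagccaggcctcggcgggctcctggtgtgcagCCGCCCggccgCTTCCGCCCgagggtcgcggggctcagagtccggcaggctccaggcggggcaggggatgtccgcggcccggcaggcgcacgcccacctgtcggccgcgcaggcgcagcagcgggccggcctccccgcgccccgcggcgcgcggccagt
GC boxes stood in the windows of USP4, USP1 and USP10, and the TATAAA letters in that of USP40, so that the letters shared by the higher pair also stood in a lower member. In USP10, 1 GC box overlaps an ETS core.

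The 16-base site of the CASC9 GapmeR had no match with 2 or fewer mismatches in any listed transcript of the 48 members. Introns outside these transcripts were not searched. At 3 mismatches 4 members had one, USP3, USP24, USP36 and USP40, and the site of the control GapmeR had 3 such members. The log2 fold changes of USP3, USP24 and USP36 were -0.06, 0.22 and 0.06 with overlapping groups, and that of USP40 was -0.52. Counted on the longest transcript alone, 3 of the 45 tested members had a site at 3 mismatches (6.67%), against 1.63% of the longest transcripts of 15930 genes, which were shorter in the median, and the control site again had 3. The nearest sites in USP11 and USP43 had 5 mismatches.

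In the other deubiquitinase families all adjusted calls were upward. Of 39 tested rows of the UCH, OTU, Josephin, JAMM, MINDY and ZUP1 families and of USP-fold proteins named otherwise, 3 rose at an adjusted p under 0.05 (7.69%, against 1.89% of all genes) and none fell (against 5.1%). At an unadjusted p 10 were higher (25.6%, against 9.09%) and 2 lower (5.13%, against 16.8%). After the GC correction 8 were higher at an adjusted p (20.5%, against 6.64%) and none lower (against 7.76%). The 5 added rows were USPL1 (adjusted p = 0.022), YOD1 (0.0192), STAMBP (0.0165), ZRANB1 (0.0103) and UCHL3 (0.0266), of which the last 2 share their rows with other genes. Their median log2 fold change was 0.03, with 20 above 0 and 19 below. TNFAIP3, the A20 inhibitor of NF-kappaB, was at 2.51, 2.41 and 1.74 FPKM in GapNC and at 5.27, 5.16 and 5.24 FPKM in GapC9, a log2 fold change of 1.22 ± 0.16 (adjusted p = 0.021). With 1 library left out the call held without GapNC 1 or GapNC 3 and was lost without each of the others (adjusted p from 0.0311 to 0.097). TNFAIP3 and OTUD3 (7.30, 8.26 and 1.96 against 11.6, 13.2 and 13.1 FPKM, adjusted p = 0.187) passed the study's own thresholds. OTUD3 did so through GapNC 3, without which its ratio was 1.63. It also missed them, at unadjusted p-values of 0.084 to 0.1, without any 1 of the GapC9 libraries. STAMBPL1, which cuts Lys63-linked chains, rose from 1.12 ± 0.0998 to 1.80 ± 0.0830 FPKM (SD, adjusted p = 0.0431). A joined row of TRIP11 and ATXN3 rose by 0.80 ± 0.14 (SE, adjusted p = 0.0332), and its reads could come from either gene. With 1 library left out, both of these calls were lost in every fit, at adjusted p-values of 0.0604 to 0.141 and 0.057 to 0.126, the lower values being those without GapNC 1. After the GC correction the adjusted p of TNFAIP3 was 0.0073, that of STAMBPL1 0.0204 and that of the joined row 0.0136.

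Of 14 cofactors of USP proteins, 1 fell (7.14%, against 5.1% of all genes). PSMD2, the proteasome subunit on which USP14 docks, was at 93.8, 78.4 and 82.7 FPKM in GapNC and at 41.7, 37.7 and 37.7 FPKM in GapC9, a ratio of 0.459 (log2 fold change -1.12 ± 0.10, adjusted p = 0.0147). With 1 library left out the call held without GapNC 1, GapNC 3 or GapC9 1 and was lost without each of the others (adjusted p from 0.0214 to 0.0718). After the GC correction it was 0.00328. WDR48, the partner of USP1, USP12 and USP46, was at 3.12, 4.44 and 3.07 FPKM against 4.59, 5.10 and 5.02 FPKM (log2 fold change 0.48 ± 0.17, adjusted p = 0.151). Of 17 known substrates, 1 fell (5.88%, against 5.1% of all genes). CDC25A, a phosphatase that drives the cell cycle, was at 14.5, 15.0 and 15.6 FPKM against 8.78, 8.64 and 8.83 FPKM (log2 fold change -0.77 ± 0.09, adjusted p = 0.0166). When libraries were left out in turn, the CDC25A call held only without GapNC 1 (0.0239 to 0.0859). After the GC correction its adjusted p was 0.0115. At an unadjusted p 5 substrates were lower (29.4%, against 16.8% of all genes) and 1 was higher (5.88%, against 9.09%). The lower ones beside CDC25A were UHRF1 (35.0 ± 5.47 against 22.0 ± 2.71 FPKM, adjusted p = 0.0574), a row joining DNMT1 and S1PR2 (adjusted p = 0.0843), FANCD2 (0.118) and AXIN1 (0.163). UHRF1 and the DNMT1 row were past the adjusted threshold after the GC correction (adjusted p = 0.0235 and 0.0306). With CDC25A, 3 substrates were then lower (17.6%, against 7.76% of all genes) and none higher (against 6.64%). The substrate higher at an unadjusted p in the main fit was MDM2 (9.52, 13.0 and 14.6 against 16.7, 22.1 and 15.5 FPKM, adjusted p = 0.177). None of the 7 rows of ubiquitin genes and E1 enzymes passed even the unadjusted threshold in the main fit. Of these rows 6 lay above 0, and their median log2 fold change was 0.13, against -0.076 over all genes. After the GC correction UBA1 alone passed, at 0.29 with an adjusted p of 0.0474, as did 6.64% of all genes upward. Without GapNC 1, and without the correction, the adjusted p of UBA1 was 0.151. RNA levels say nothing of the activity of these enzymes or of the amount of their substrates as proteins.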

How the data were processed

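RNA of HCT-116 cells was sequenced in 6 libraries, 3 GapNC and 3 GapC9, grouped by their titles. Per the study's methods, the authors aligned reads with HISAT to a human genome and computed the FPKM values with StringTie, which they deposited in 1 table of 27918 rows. The submitters' processing notes list Bowtie 0.12.2, HISAT2 2.0, StringTie 1.3.0 and mm8, which is a mouse build, while the table holds human gene and transcript identifiers. The human build and the use of strand are not given in the sources used here. StringTie loci can join neighbouring genes (1063 rows, no USP member). No column was left unused. The authors' own edgeR fit was not repeated, since a count model cannot be run on FPKM.

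No rescaling was applied. The main test was limma 3.58.1 under R 4.3.3 (lmFit, eBayes with trend) on log2(FPKM + 0.1). It covered the 16028 rows whose mean reached 0.1 FPKM, with Benjamini-Hochberg adjustment over all of them. Fold changes are on this scale, which understates those of low genes. The fit was checked on simulated data. Coordinates and GC content came from GENCODE release 29 (GRCh38), with all 48 members matched to 1 gene. The GC correction subtracted a lowess of each library's deviation from the gene mean (span 0.3), with GC known for 99.3% of the rows tested. The alternatives were other filters, another pseudocount, scaling, the GC correction, a replicate block, no trend and leaving out each library. Promoter windows came from RefSeq (GRCh38.p14) and the GapmeR site from the study's supplementary list of oligonucleotides. Replicate numbers were not taken to pair the libraries, and the labels do not settle whether they do. Members and gene lists were chosen with earlier results of these data known. All members could be named. Members past a threshold, or without overlap at a ratio of at least 1.5 or at most 0.67, or listed at 0, got every library's value. Genes of other lists were named when past a threshold or as partners of such a member. The substrates past an unadjusted p, and the deubiquitinases and UBA1 past the GC-corrected threshold, were named after their values were seen.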

Additional observations from a re-analysis of the deposited data

How the results depend on the processing

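The count of USP members that were lower at an adjusted p under 0.05, 2 as reported, was 4 at a filter of 1 FPKM, 6 after the GC correction, 1 with median scaling, 1 in limma without the trend and 0 with no filter. It ran from 0 to 1 when each library was left out in turn. The lower calls over all genes moved as well, from 817 to 346 with no filter, to 573 without GapNC 1, and to 17 to 70 when any other library was left out. The count of higher members, 0 as reported, was 4 after the GC correction. The counts past fold and unadjusted p were 0 under all 15 alternatives. The median log2 fold change of the members, 0.0005, was 0.1546 with median scaling and 0.0898 with quantile normalization, and ran from -0.1336 without GapNC 1 to 0.0238 with a library left out. The cause of these shifts was not tested. For the 11 members past an unadjusted p, all 165 values under the alternatives kept their direction, 19 lost a call and 9 gained one.

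With the replicate number as a block, the count of lower members was 0, and it was 0 for the block with the GC correction. Over all genes the block left no adjusted call in either direction. Deviations of libraries with the same number correlated at 0.113, 0.036 and 0.033, and only the first was above 0.1, so the numbers were not taken to pair the libraries. The labels do not say whether they do, and in both groups the trend on GC content fell from library 1 to library 3. GapNC 1 and GapNC 2 correlated best with the GapC9 library of their own number, whereas GapNC 3 correlated best with GapC9 2 (0.087). The limit of 0.1 is not a test, so these correlations do not settle the pairing either.

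Each group had 3 libraries, and the libraries differed in their trend on GC content, GapNC 1 most. Levels under 0.1 FPKM were too low to compare, and FPKM gives shares of a library, not molecules per cell.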
